A study of Mus musculus with 5 samples.

Results

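The atrioventricular canal (AVC) of embryos without *Twist1* was compared with that of wild-type embryos, as 2 single Tag-seq libraries out of the 5 of the series. The wild-type AVC library was made from tissue of 25 pooled C57BL/6 embryos. The null library was made from 8 AVCs of *Twist1* Knockout embryos, which were kept on an ICR background. The other 3 libraries, all wild-type C57BL/6, hold the outflow tract (OFT) of 25 embryos and the atria and the ventricles of 20 embryos each. They are given here as the range of levels between the wild-type libraries. Each region is 1 library, so that region and library cannot be told apart. All tissue was dissected at embryonic day 10.5 (Theiler stage 17). The groups differ in genotype, strain, number of embryos and library at once, so that these cannot be told apart, and with 1 library on each side no difference has a replicate check. The tests compare 2 libraries, not 2 genotypes. Which part of the *Twist1* gene was deleted is not given in the sources used here.

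Tag-seq counts short cDNA tags, not whole transcripts. The cDNA was cut at CATG, the site of the enzyme NlaIII, and the 17 bases after the site were read, so that 1 gene is represented by a few tag types, most often the one nearest to the polyadenylated end. Tags that matched the sense strand of 1 gene were summed, which gave 12966 genes with a tag in either AVC library, of 13489 with a tag in any library. Levels are tags per 1000000 high-quality tags (TPM). The wild-type AVC library held 6075421 tags and the null 12977237, and tag types were listed from 6 tags upwards, which corresponds to 0.988 and 0.462 TPM. For the OFT, atria and ventricles this limit was 1.14, 1.29 and 1.42 TPM. The atria and ventricles listed fewer genes (9779 and 9722) than the wild-type AVC (11918). The summed level of 5 sex-linked genes was also lower there (15.6 and 33.6 TPM against 222). A low or missing level in the chambers can therefore go with the library as well as with the region. Of the 12966 genes 11562 were listed in both libraries, 356 in the wild type alone and 1048 in the null alone. Where a pair of levels follows a gene, the first is the wild-type AVC and the second the null. Intervals are 95% intervals that cover counting error only.

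TWIST1, a transcription factor of the basic helix-loop-helix family, is best known for its part in epithelial-to-mesenchymal transformation (EMT). In the AVC, endocardial cells lose their junctions, enter the matrix beneath them and become the cushion mesenchyme from which the valves and part of the septa form. The surrounding myocardium sends BMP and TGF-beta signals to the endocardium, and the new mesenchyme fills the cushion with collagens, proteoglycans and hyaluronan. TGF-beta is secreted in a latent form, held in the matrix by latent TGF-beta binding proteins until it is released.

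The targeted gene was read first. *Twist1* was listed at 918 TPM in the wild-type AVC, 299 in the OFT, 63.4 in atria, 55.9 in ventricles and 4.55 in the null AVC. The null thus held the lowest level of the 5 libraries, 202-fold under the wild-type AVC (interval 156 to 266, edgeR exact test p = 2.61e-15). The tags that carry this reading are given with the NlaIII site in capitals, because they show which stretch of the transcript was measured (GRCm38, plus strand of chromosome 12).
*Twist1*, last site: CATGgtaaaatgcaaatagat
*Twist1*, site 2 from the end: CATGcattctcaagaggtctt
*Twist1*, site 4 from the end: CATGgaaattagaagagcaga
The first of these, at chr12:33959711-33959731, was read 5401 times in the wild-type AVC and 59 times in the null. The tag at chr12:33959472-33959492 was read 165 times in the wild type, and the tag at chr12:33959259-33959279 was read 11 times, and neither was listed in the null. All of them lie in the 3′ UTR, so they measure the level of transcripts that reach this end and not the coding part.

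Over all 12966 genes, 1650 were called lower in the null and 1539 higher at an unadjusted exact p under 0.05, which is 12.7% and 11.9% of the genes tested. The median log2 ratio of null over wild type was -0.16. After Benjamini-Hochberg adjustment 511 lower and 656 higher genes remained under 0.05. The balance between the directions depended on the scaling. Of the calls 51.7% were lower with the totals of high-quality tags and 38.7% with TMM normalization, which moved every log2 ratio up by 0.24. With tags that start with thymine left out, 69.3% of calls were lower, or 43.1% with TMM as well. Gene lists are therefore described beside these shares of all genes, and for each called gene it was recorded in how many of 4 other settings the call held. These settings were TMM, an offset for the first base of the tag, tags not starting with thymine with TMM, and tag types listed in both libraries with TMM. Taken singly, they called 9.37% of genes lower and 14.9% higher, 9.80% and 12.2%, 10.7% and 14.1%, and 7.98% and 10.3%, in this order. In all, 471 genes (3.63%) were lower in every one of them and 254 (1.96%) were higher.

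**Figure D1:**
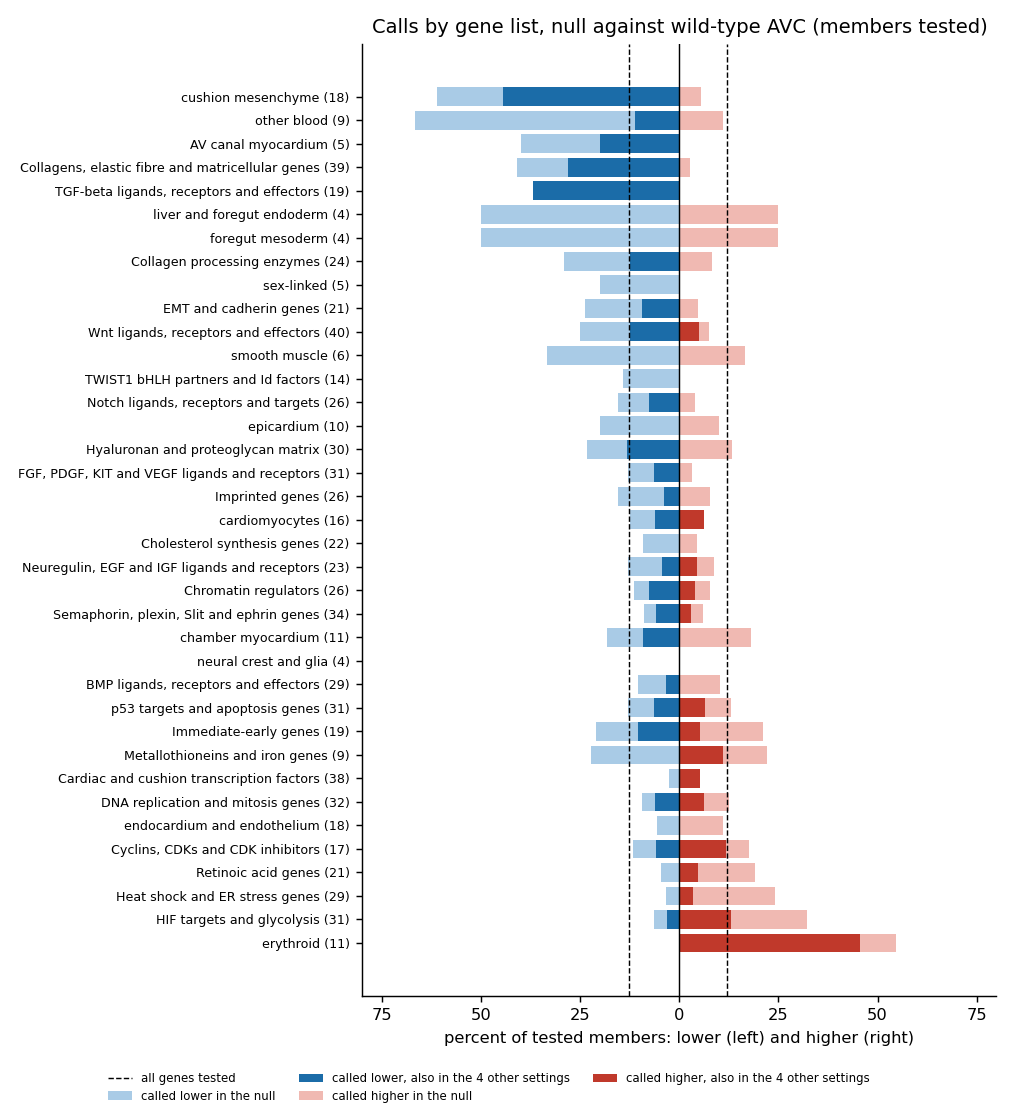
Share of tested members of each gene list that were called lower (bars to the left) or higher (bars to the right) in the null AVC, in percent, with the number of members tested in brackets; dark bars are members called in the 4 other settings as well, and dashed lines are the shares over all genes (12.7% lower, 11.9% higher). Cushion mesenchyme, TGF-beta and collagen lists reach furthest to the left among lists with at least 18 members, and the erythroid list furthest to the right.

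Of 19 genes of TGF-beta signalling tested, 7 were lower in the null and none was higher, and the 7 were also lower in all 4 other settings. Over all genes 12.7% were lower and 11.9% higher, and 3.63% were lower in all 4 other settings as well. They were *Ltbp1*, *Ltbp3*, *Ltbp4*, *Lrrc32*, *Thbs1*, *Htra1* and *Tgfbi*. The median log2 ratio of the list was -1.23. *Ltbp1*, which encodes a latent TGF-beta binding protein, stood at 121 TPM in the wild-type AVC and 142 in the OFT, against 5.16 in the null, 7.71 in atria and 16.1 in ventricles. The null AVC thus lay below both chamber libraries, and 23.4-fold under the wild-type AVC (18.2 to 30.5, edgeR exact p = 7.68e-08). *Ltbp4*, another gene of this family, was listed at 57.3 TPM in the wild-type AVC, 86.6 in the OFT, 2.62 in the null and 1.5 in atria, and was not listed in ventricles, a difference of 21.9-fold between the AVC libraries (15.4 to 32.1, exact p = 1.88e-07). *Ltbp3* was listed at 32.1 TPM and 6.16 TPM, while *Ltbp2* had 1.98 and 3.85 TPM and was not called.

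The tags of these genes are given because each falls outside the first-base class that was favoured in the null library.
*Ltbp1*, last site: CATGgctgtcattttaaacag
*Ltbp1*, second site: CATGaaggactcagatgacta
*Ltbp4*, last site: CATGcccagtccctcccacca
*Tgfbi*, last site: CATGgtgcatttgtaataata
The first *Ltbp1* tag lies in the 3′ UTR at chr17:75390810-75390830 and was read 673 times in the wild type and 57 times in the null. The second lies in coding sequence across an exon junction, was read 60 and 10 times, and gave a ratio of 12.8 where the first gave 25.2. Both tags of *Ltbp1* were therefore lower. The *Ltbp4* tag at chr7:27305220-27305240 (minus strand, 3′ UTR) was read 332 and 34 times. A second *Ltbp4* tag, in coding sequence, was read 16 times in the wild type alone.

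Further members encode proteins that act on the latent complex or are known to answer to it. *Lrrc32*, which encodes a cell surface protein that holds latent TGF-beta, was listed at 10.9 TPM in the wild-type AVC and 2.16 in the null. *Thbs1*, encoding the activator thrombospondin 1, was listed at 205 and 49.5 TPM. *Htra1*, encoding a secreted serine protease that cuts matrix and TGF-beta family proteins, was listed at 70.3 and 10.6 TPM, a 6.66-fold difference (5.48 to 8.13), and was not listed in atria or ventricles. *Tgfbi*, the gene of a matrix protein induced by TGF-beta, was listed at 117 TPM in the wild-type AVC, 223 in the OFT and 14.1 in the null, 8.26-fold lower (7.01 to 9.78, exact p = 9.93e-05). Its tag at chr13:56639321-56639341, in the 3′ UTR, was read 687 times in the wild type and 183 times in the null. The call rests on this tag, as the others were read 14 and 7 times, in the wild type alone. The study reported a far lower *Tgfbi* level in the wild-type AVC, none in the null, and a difference that was not significant. It may not have counted this tag for *Tgfbi*, and the reason for the difference was not tested.

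None of the 3 ligand genes passed the test. *Tgfb1* was listed at 30.5 TPM in the wild-type AVC and 12.8 in the null, *Tgfb3* at 11.0 and 3.85, and *Tgfb2*, the main ligand of the cushion myocardium, at 172 and 266. The tags of *Tgfb2* did not move together: log2 ratios of its 7 tag types with at least 50 tags ran from -1.85 to 3.20. The receptor genes *Tgfbr1* (52.0 and 22.1 TPM), *Tgfbr2* (27.3 and 29.7) and *Tgfbr3* (36.9 and 21.5), and the co-receptor gene *Eng* (43.5 and 30.4), did not pass the test either. A p above the threshold in 2 single libraries does not show that these levels were alike.

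**Figure D2:**
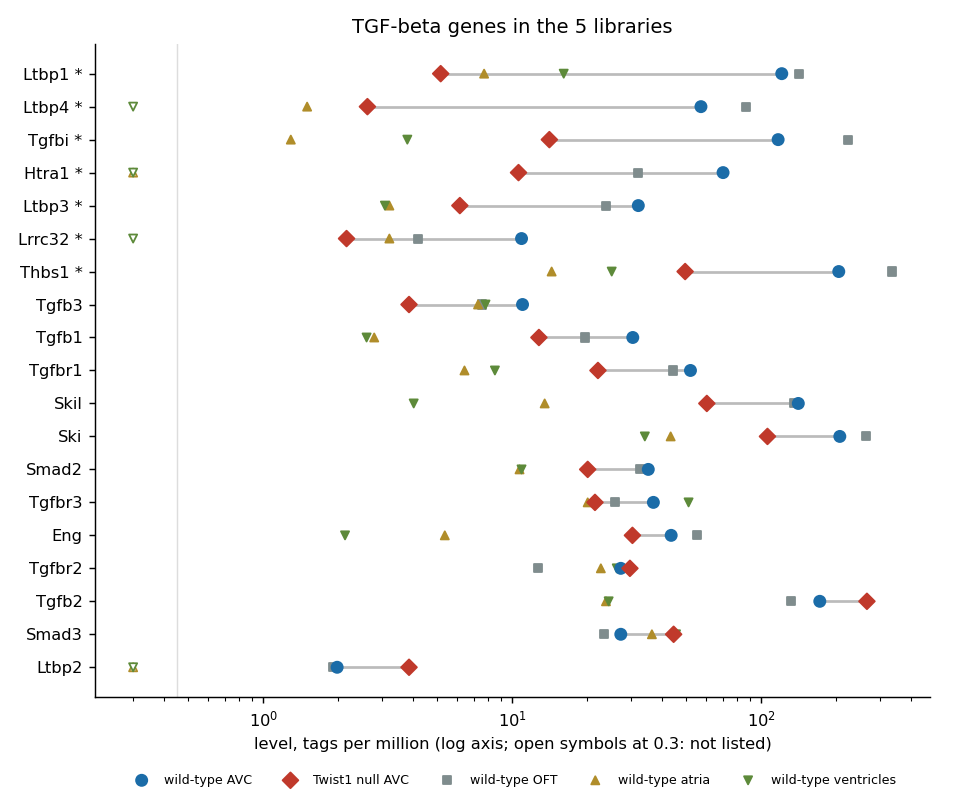
Level of each TGF-beta gene in the 5 libraries, in TPM on a log axis, with open symbols for genes that a library does not list. The null AVC (diamonds) lies to the left of the wild-type AVC (circles) by the widest gaps at *Ltbp1* (5.16 against 121 TPM) and *Ltbp4* (2.62 against 57.3 TPM), while *Tgfb2* (266 against 172 TPM) lies to the right.

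The summed level of 18 markers of cushion mesenchyme was 3429 TPM in the wild-type AVC (3382 to 3475), 4131 in the OFT, 905 in the null AVC (889 to 921), 431 in atria and 425 in ventricles. The null therefore lay between the chambers and the 2 wild-type cushion regions, at 0.264 of the wild-type AVC (0.258 to 0.270). *Col3a1* alone made up 1439 TPM of the wild-type AVC sum and 207 TPM of the null sum. In bulk tissue, fewer cells of a type and less RNA per cell cannot be told apart. Of the 18 markers 11 were called lower and 1 higher, 8 of the 11 in all 4 other settings, with a median log2 ratio of -2.06. Among all genes the shares were 12.7% lower and 11.9% higher, with 3.63% lower in all 4 other settings. *Snai1*, encoding the SNAIL transcription factor that represses cadherins in EMT, was listed at 43.5 and 4.78 TPM, and its relative *Snai2* at 13.3 and 3.24. *Sox9*, needed for growth of cushion mesenchyme, was listed at 514 and 114 TPM, and *Pdgfrb*, a receptor of mesenchymal cells, at 15.3 and 2.62. *Pdgfra* (35.2 and 35.8 TPM), *Prrx1* (29.8 and 16.1), *Msx1* (92.3 and 61.0), *Scx* (3.79 and 2.93), *Cdh11* (65.2 and 36.8) and *Vcan* (413 and 263), the gene of the proteoglycan versican, were not called. *Lum* was the marker called higher, at 0.988 and 4.78 TPM, and rests on 1 tag type that starts with thymine.

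Genes of the fibrous matrix were called lower far more often than higher. Of 39 tested genes of collagens, elastic fibres and matricellular proteins 16 were lower and 1 was higher, 11 of the 16 in all 4 other settings, and the median log2 ratio was -1.26. The shares over all genes were 12.7% lower and 11.9% higher, and 3.63% lower in all 4 other settings. The lists overlap. Of the 16, *Fbln2*, *Col3a1*, *Col1a1*, *Postn* and *Col1a2* are also among the lower markers of cushion mesenchyme, and *Thbs1* is among the lower TGF-beta genes. *Col9a3* and *Col9a2*, which encode chains of the cartilage-type collagen IX, were listed at 131 and 14.8 TPM in the wild-type AVC and at 11.9 and 0.694 in the null. The third chain gene, *Col9a1*, had 22.5 and 13.3 TPM and was not called. *Fbn2*, the gene of the microfibril protein fibrillin 2, was listed at 438 TPM in the wild-type AVC, 284 in the OFT, 47.4 in the null, 30.9 in atria and 31.0 in ventricles, 9.25-fold lower in the null than in the wild-type AVC (8.47 to 10.1, exact p = 4.13e-05). *Fbn1* showed 85.9 and 68.4 TPM and was not called. *Tnc*, encoding tenascin C, was listed at 47.7 and 4.85 TPM in the AVC libraries and at 523 in the OFT, from 1 tag type. Among basement membrane genes *Nid1* was called lower (383 and 141 TPM), though in none of the 4 other settings, and *Col4a1* (408 and 177), *Col4a2* (216 and 82.0), *Lamb1* (519 and 200), *Lamc1* (102 and 159) and *Nid2* (170 and 185) were not called. The gene called higher was *Efemp2*, which encodes the elastic fibre protein fibulin 4, at 2.63 and 16.7 TPM. It rests on 1 tag type that starts with thymine and was not called without such tags.

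Among the small leucine-rich proteoglycans, which coat collagen fibrils, *Dcn*, *Bgn* and *Fmod* were each over 10-fold lower in the null, at 60.4, 49.4 and 5.6 TPM in the wild-type AVC and 4.70, 4.55 and 0.539 in the null. *Lum*, of the same family, was called higher instead (0.988 and 4.78 TPM), in 2 of the 4 other settings. *Papss2*, which makes the sulfate donor for proteoglycans, was listed at 219 TPM in the wild-type AVC, 116 in the OFT and 12.0 in the null, 18.2-fold lower (15.4 to 21.6, exact p = 3.70e-07), and was not listed in either chamber. The hyaluronan synthase gene *Has2* (215 and 171 TPM) and the hyaluronan link protein gene *Hapln1* (1045 and 605) were not called. In the list of 30 hyaluronan and proteoglycan genes 7 were lower and 4 higher, 4 of the lower and none of the higher in all 4 other settings. Over all genes 12.7% were lower and 11.9% higher, so the higher calls were near that share. They were *Sdc4*, *Gpc4*, *Lum* and *Adamts9*.

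Genes for making and trimming collagen were lower in part. Of 24 tested 7 were lower and 2 higher, with 3 of the 7, namely *Pcolce*, *Pcolce2* and *Mmp14*, lower in all 4 other settings. These counts stand beside 12.7% lower, 11.9% higher and 3.63% lower in all 4 other settings among all genes. *Pcolce* and *Pcolce2*, encoding enhancers of the protease that removes the collagen propeptide, were listed at 202 and 8.39 TPM in the wild-type AVC and at 35.1 and 1.23 in the null. *Mmp14*, a membrane-bound collagenase gene, was listed at 89.4 and 21.7 TPM, and was not listed in the chambers. Inside the cell, the collagen chaperone gene *Serpinh1* (1213 and 813 TPM), *P4hb* (355 and 180) and *Ppib* (287 and 190) were not called, *Plod2*, a lysyl hydroxylase gene, was lower (33.6 and 7.63) in 3 of the 4 other settings, and *P4ha2*, a prolyl hydroxylase subunit gene, was higher (60.2 and 185) from tags that start with thymine almost alone.

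Sums of cardiomyocyte and endothelial markers differed less between the AVC libraries. The 16 cardiomyocyte markers summed to 23222 TPM in the wild-type AVC and 21535 in the null, a ratio of 0.927 (0.921 to 0.933), with 24595 in the OFT, 20589 in ventricles and 9749 in atria. Of these markers 2 were lower, 1 was higher and 13 were not called. Sums over markers of parts of the myocardium were lower in the null, though not every marker was. Those of chamber myocardium summed to 6111 and 4165 TPM, a ratio of 0.682 (0.673 to 0.691), and to 2240 in atria. *Myl7* made up 4341 and 3405 TPM of the AVC sums. Of 11 chamber markers 2 were lower and 2 higher, against 12.7% and 11.9% of all genes. Markers of AV canal myocardium summed to 415 and 255 TPM, a ratio of 0.614 (0.582 to 0.646), with 2 of 5 lower and none higher. Of these, *Bmp2* had 220 and 51.2 TPM, *Msx2* 78.8 and 60.2, and *Cacna1g* 6.09 and 1.77. *Tbx3* (90.0 and 121) and *Tbx2* (20.1 and 21.1) did not have lower levels in the null. The 18 endothelial and endocardial markers summed to 881 and 809 TPM, a ratio of 0.919 (0.889 to 0.95), or 0.738 without tags that start with thymine. *Cdh5*, the junctional cadherin of endothelium, had 90.9 and 81.8 TPM, and *Nfatc1*, a transcription factor of the endocardium, had 93.0 and 119, both not called. *Ramp2*, a receptor-associated protein gene, was called lower (172 and 50.9 TPM), in 1 of the 4 other settings, and *Sox18* (1.48 and 7.17) and *Emcn* (0 and 2.70) were called higher. *Sox18* rests on 1 tag type that starts with thymine and held in 2 of the 4. *Emcn* was listed in the null alone, at least 1.09-fold higher, and held in 3 of the 4. Epicardial markers summed to 281 and 209 TPM.

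Within the myocardium a few genes stood apart from the total. *Myh6*, which encodes the alpha myosin heavy chain, was listed at 2696 TPM in the wild-type AVC, 904 in the OFT, 290 in the null, 196 in atria and 142 in ventricles, 9.31-fold lower in the null than in the wild type (8.99 to 9.65, exact p = 3.73e-05). All 5 of its tag types with at least 50 tags were lower, by log2 ratios from -1.45 to -4.12, and none starts with thymine. Its main tag is shown because it holds most of the counts and lies in coding sequence (chr14:54944300-54944320, minus strand).
*Myh6*, last site: CATGaggaagagcgagcggcg
This tag was read 15519 times in the wild-type AVC and 3556 times in the null. *Myh7*, the gene of the beta chain, had 1057 and 1454 TPM and *Actc1*, cardiac actin, had 6283 and 8933, and neither was called. *Nppb*, encoding the natriuretic peptide BNP, was listed at 255 TPM in the wild-type AVC and 30.7 in the null, against 871 in atria and 3754 in ventricles, and was 8.29-fold lower in the null (7.42 to 9.27). *Bmp2*, the myocardial BMP ligand of the canal, was listed at 220 TPM in the wild-type AVC, 27.1 in the OFT, 51.2 in the null and 4.50 in atria, and was not listed in ventricles. *Nkx2-5*, a core cardiac transcription factor gene, was called higher, at 14.3 and 55.9 TPM. The canal factors *Tbx2* (20.1 and 21.1 TPM) and *Tbx3* (90.0 and 121) were not called. *Bmp2*, *Myh6*, *Nppb* and *Nkx2-5* held their direction in all 4 other settings.

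Red cell transcripts were higher in the null AVC than in the wild-type AVC. The 12 erythroid markers summed to 2433 TPM in the wild-type AVC (2394 to 2473) and 3089 in the OFT, against 27395 in the null (27306 to 27484), 46742 in ventricles and 215457 in atria. The null therefore lay within the range of the wild-type libraries, 11.3-fold above the wild-type AVC (11.1 to 11.4), or 6.43-fold without tags that start with thymine. The methods include a step to clear the dissected hearts of blood, and how much stayed in each pool is not known. Of 11 erythroid genes tested 6 were higher and none lower, 5 of them in all 4 other settings, with a median log2 ratio of 2.36. Among all genes 11.9% were higher and 12.7% lower, and 1.96% were higher in all 4 other settings. The part of blood content in the other calls was not tested.

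Most of this sum came from embryonic globins, which primitive red cells make before the fetal liver takes over. *Hbb-y* was listed at 598 TPM in the wild-type AVC and 15446 in the null, *Hbb-bh1* at 605 and 6497, and *Hba-x* at 1204 and 5359. The tags of the beta-like genes are given because their first bases differ, which matters for the null library.
*Hbb-y*, last site: CATGtttaataaagatcatcc
*Hbb-y*, second site: CATGaatactggactgttcct
*Hbb-bh1*, last site: CATGgggactgcattgagagc
*Hbb-bh1*, second site: CATGtgtctatgatgccctct
Both *Hbb-y* tags lie in its 3′ UTR on chromosome 7, the first at chr7:103851766-103851786 and the second at chr7:103851798-103851818 (minus strand). The first starts with thymine and was 26.0-fold higher in the null. The second starts with adenine and was 6.85-fold higher. For *Hbb-bh1* the tag that starts with guanine was 10.5-fold higher and the one that starts with thymine 68.3-fold. Every one of these tags was higher in the null, and in each gene the one with thymine gave the larger ratio. *Alas2*, the first enzyme of haem synthesis in red cells, was listed at 4.44 and 22.9 TPM and *Gata1*, the transcription factor of the lineage, at 0.988 and 10.2. *Slc4a1*, the anion exchanger of the red cell membrane, was listed at 24.6 TPM in the null and not in the wild-type AVC, at least 14.9-fold higher. The adult globin genes *Hba-a1* (7.74 and 21.1 TPM) and *Hba-a2* (3.95 and 4.32), which are near-identical copies, were not called, and *Ahsp* was listed in neither.

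The sum of platelet and white cell markers was lower in the null AVC, while single members went either way. The 12 markers summed to 41.8 TPM in the wild-type AVC (36.8 to 47.3) and 6.86 in the null (5.51 to 8.44), a ratio of 0.164 (0.127 to 0.210), with 14.8 to 38.1 TPM in the other wild-type libraries. *Pf4*, platelet factor 4, was listed at 23.7 TPM in the wild-type AVC and 0.925 in the null, 25.6-fold lower (14.2 to 50.8, exact p = 2.36e-07), and at 1.93 to 3.79 TPM elsewhere. It rests on 1 tag, whose first base lies in the 5′ UTR, and the wild-type AVC held the highest level of the 5 libraries. *Gp9*, a platelet glycoprotein gene, was listed at 3.79 TPM in the wild type alone, at least 9.83-fold lower in the null. The macrophage genes *Fcer1g* (2.80 TPM) and *C1qb* (2.14 TPM) were also listed in the wild type alone, at least 7.26-fold and 5.55-fold lower. Of 9 markers tested 6 were lower and 1 was higher, against 12.7% and 11.9% of all genes. Among these markers *Pf4* alone held in all 4 other settings. That does not set it apart from *Gp9*, *Fcer1g*, *C1qb*, *Cx3cr1* and *Ptprc*. The null listed no tag of these, so the setting with tag types listed in both libraries could not call them. Each was lower in the other 3. The higher one, the platelet gene *Ppbp*, was listed in the null alone, at 1.46 TPM, and held in 2 of the 4. *Tyrobp*, a signalling adaptor gene of white cells, was also listed in the null alone, at 0.462 TPM, and was not called. *Itga2b*, which marks early platelet precursors, had 6.75 and 4.01 TPM and was not called. The defining macrophage gene *Csf1r* was at 0 in both AVC libraries, and so were *Lyz2* and *C1qa*.

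**Figure D3:**
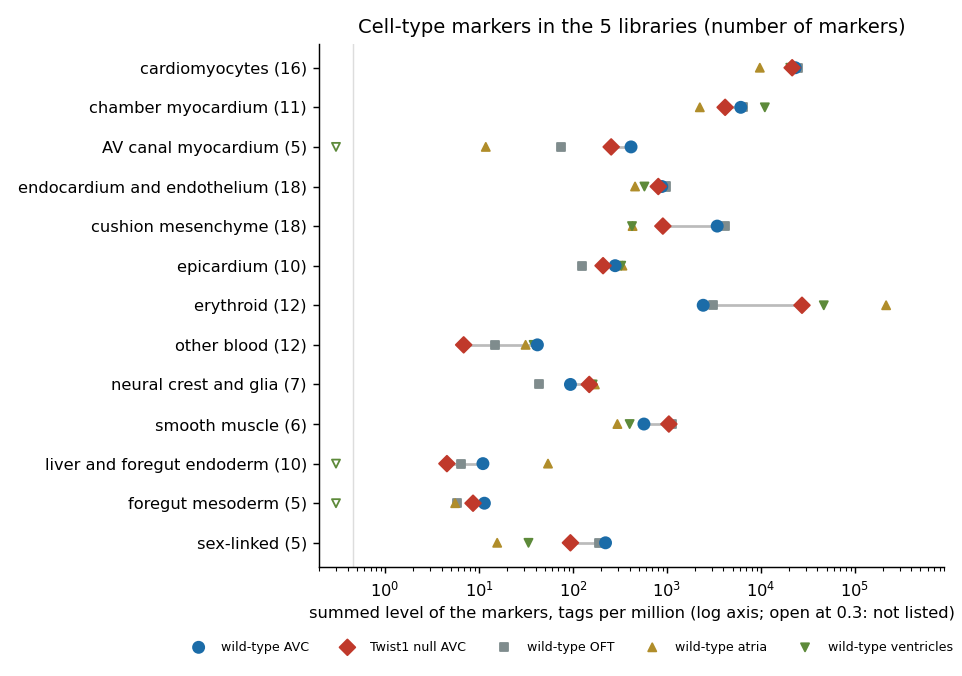
Summed level of each list of cell-type markers in the 5 libraries, in TPM on a log axis, with the number of markers in brackets and open symbols for lists that a library does not hold. Between the AVC libraries the erythroid sum (2433 against 27395 TPM), the cushion mesenchyme sum (3429 against 905) and the sum of other blood markers (41.8 against 6.86) are furthest apart, while cardiomyocyte and endothelial sums nearly coincide.

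Many markers of endoderm and neural crest were at 0 in both AVC libraries. Of 10 markers of liver and foregut endoderm 7 were at 0 in each, among them *Epcam*, *Cdh1* and *Foxa2*, and their sums were 11.0 and 4.55 TPM. Of 7 markers of neural crest and glia 3 were at 0 in both, namely *Foxd3*, *Tfap2a* and *Tfap2b*, and the sums of 94.0 and 149 TPM came mostly from *Ednrb* (62.9 and 120). Smooth muscle markers summed to 569 and 1049 TPM, but to a ratio of 0.740 in place of 1.84 once tags that start with thymine were left out. *Acta2*, smooth muscle actin, was called higher, at 120 and 716 TPM, and the other 5 markers had lower values in the null. Of these *Smtn* (63.7 and 22.0 TPM) and *Myh11* (0.988 and 0) were called lower, while *Cnn1* (201 and 192), *Tagln* (172 and 113) and *Mylk* (11.5 and 5.93) were not called.

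Glycolysis genes and targets of the hypoxia-inducible factor (HIF) were the pathway list with the largest share of higher calls. Of 31 genes tested 10 were higher and 2 lower, against 11.9% and 12.7% of all genes, and the median log2 ratio was 1.04. In all 4 other settings 4 of the 10 were higher, against 1.96% of all genes. These 4 were *Gpi1*, *Pgk1* and *Ldha*, which encode enzymes of glycolysis and lactate formation, and the HIF target *Ankrd37*. *Gpi1* was listed at 136 TPM in the wild-type AVC and 816 in the null, with 86.4 to 156 TPM in the other 3 libraries. *Pgk1* was listed at 1029 and 5514 TPM, and *Ldha* at 2096 and 6098, but for both the atria (3920 and 4715 TPM) and ventricles (6339 and 8570) held levels near or above that of the null. *Ankrd37* was listed at 2.96 and 53.5 TPM. All its wild-type AVC tags start with thymine, so the setting without them set a few null tags against none and adds little to its call. *Hif1a* itself (218 and 209 TPM), the HIF targets *Vegfa* (92.8 and 77.4) and *Car9* (0 and 0.539) and the glucose transporter gene *Slc2a1* (1356 and 2107) were not called. *Pfkm*, the muscle form of phosphofructokinase, was lower, at 67.2 and 14.1 TPM.

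Single tags qualified several of these calls. Of the 5 tags of *Gpi1* with at least 50 tags 3 were higher, and the others had log2 ratios of -0.74 and -2.02. The main tag of *Pgk1*, which starts with guanine, was 5.43-fold higher in the null, and 4 minor tags of the gene with 18 or fewer tags in the wild type were lower. The main tag of *Ldha*, which starts with cytosine, was 2.98-fold higher, and another, which starts with adenine and was read 356 and 398 times, was 1.91-fold lower (58.6 and 30.7 TPM). *Tpi1*, encoding triosephosphate isomerase, was listed at 196 and 3923 TPM, a 20-fold difference that stood on 1 tag.
*Tpi1*, last site: CATGtaagggaaataaacacc
*Tpi1*, site 4 from the end: CATGcttctgatgacatcatc
The first tag, at chr6:124810724-124810744 in the 3′ UTR (minus strand), was 22.5-fold higher in the null and starts with thymine. The second was 1.27-fold higher. Tags that start with adenine and guanine were 2.32-fold and 1.76-fold higher, and 1 further tag, which starts with thymine, was 1.07-fold lower. The tags of *Hspa5*, the gene of the endoplasmic reticulum chaperone BiP, disagreed more sharply. This gene was called higher, at 260 and 892 TPM, because its main tag, which starts with thymine, was 3.86-fold higher. Coding tags that start with guanine and adenine were 11.0-fold and 12.3-fold lower. The first base did not divide its tags cleanly, as a tag that starts with cytosine (6 and 44 tags) was 3.43-fold higher. Another that starts with thymine was 1.45-fold lower. In the list of 29 heat shock and endoplasmic reticulum stress genes 7 were higher and 1 lower, but of the 7 only *Asns*, asparagine synthetase, was higher in all 4 other settings (14.6 and 87.8 TPM). For all genes the shares were 11.9% higher, 12.7% lower and 1.96% higher in all 4 other settings.

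Wnt genes were lower in part. Of 40 tested 10 were lower and 3 higher, against 12.7% and 11.9% of all genes, so that the higher ones were under that share. In all 4 other settings 5 and 2 of them held, against 3.63% and 1.96% of all genes. The median log2 ratio was -0.51, against -0.16 over all genes. Among the ligands, *Wnt9b*, which is known from cushion endocardium, was listed at 8.07 TPM in the wild-type AVC and 0.539 in the null, and not in the OFT, atria or ventricles, 15.0-fold lower (6.74 to 39.1, exact p = 5.03e-05). *Wnt2* had 5.76 and 0.616 TPM and was called lower in 3 of the 4 other settings, and *Wnt4* (15.5 and 5.39) in none of them. Among the receptors *Fzd4* was lower (46.3 and 7.17 TPM) and *Fzd7* higher (10.4 and 65.1), and both tags of *Fzd7* with at least 50 tags agreed, at log2 ratios of 2.52 and 2.55. *Ror2* and *Ryk*, receptors of the non-canonical branch, were listed at 46.3 and 82.5 TPM in the wild type and 7.32 and 13.8 in the null. For *Ryk* a tag 1 base from one of its tags, counted in, brought the null to 23.2 TPM and the difference from 5.98-fold to 3.56-fold. Of the intracellular transducers *Dvl2* was higher (3.29 and 23.0 TPM) and *Gsk3b* lower (86.2 and 23.2). *Axin2*, a common readout of canonical Wnt signalling, had 30.8 and 23.4 TPM and *Ctnnb1*, beta-catenin, had 67.6 and 142, and neither was called.

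The other signalling lists gave fewer calls. Of 26 Notch genes 4 were lower, near the 12.7% of all genes, and 1 was higher, under their 11.9%. Among them were the endothelial ligand gene *Dll4* (4.94 and 0.616 TPM) and the corepressor gene *Tle2* (23.7 and 5.16), both lower in all 4 other settings, while *Notch1* (31.8 and 29.4) was not called. Of 29 BMP genes 3 were lower and 3 higher, a share near that of all genes, and *Id2*, which answers to BMP, had 1086 and 801 TPM and was not called. Of 38 cardiac and cushion transcription factors 1 was lower and 2 were higher, *Nkx2-5* and *Zfpm2* (9.38 and 31.7 TPM), the gene of the GATA cofactor FOG2. The E protein partners of TWIST1, *Tcf3* (92.7 and 49.3), *Tcf4* (84.6 and 95.2) and *Tcf12* (71.4 and 75.1), were not called, nor was *Twist2* (14.8 and 9.79). *Igf1*, insulin-like growth factor 1, was 6.23-fold lower in the null (5.58 to 6.97), at 205 and 32.9 TPM, and 5 of its 6 tags with at least 50 tags were lower. Of 21 retinoic acid genes 4 were higher and 1 was lower, against 11.9% and 12.7% of all genes. *Crabp2*, a retinoic acid carrier, was higher in all 4 other settings (1.32 and 6.32 TPM). *Aldh1a1*, which makes retinoic acid, was listed in the null alone (4.70 TPM), and so were the other higher genes, *Cyp26b1* (2.08) and *Aldh1a3* (0.771). *Cyp26b1* was at least 1.26-fold higher. The level of *Aldh1a3* lies under the wild-type AVC limit of 0.988 TPM, and no bound could be given for it.

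Of 32 genes of DNA replication and mitosis 3 were lower and 4 higher, shares near or below the 12.7% and 11.9% of all genes. *Mcm5* and *Top2a* were lower in the null, at 219 and 526 TPM in the wild-type AVC and 44.2 and 132 in the null, while *Mcm6* (80.7 and 469 TPM) and *Mcm7* (92.8 and 272), which belong to the same helicase as *Mcm5*, were higher. All 4 held in the other settings. The remaining helicase genes *Mcm2* (84.9 and 47.7), *Mcm3* (108 and 70.0) and *Mcm4* (93.2 and 43.2) and the proliferation marker *Mki67* (218 and 125) were not called. Of the growth regulators *Mycn* (9.88 and 68.2 TPM) and *Ccnd3* (158 and 479) were higher, and the maintenance DNA methyltransferase gene *Dnmt1* was lower (189 and 44.8).

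The 10 genes with the smallest p in each direction were also read, among those that held with TMM and in tags listed in both libraries and that are not named in the text or main tables of the study. Besides *Ltbp1*, *Ltbp4*, *Pf4* and *Col9a2* the lower ones were *Pgap2*, which acts on lipid anchors of membrane proteins (38.2 and 1.0 TPM), *Chd8*, a chromatin remodeller (46.9 and 1.39), *Lrit2* (63.9 and 3.62), *Syngr2* (41.5 and 2.23), *Zc3h13*, part of the complex that methylates adenosine in mRNA (32.9 and 1.85), and *Mlf1* (17.4 and 0.925). Besides *Hbb-y*, *Tpi1* and *Ankrd37* the higher ones were *Rrn3*, an initiation factor of ribosomal RNA synthesis (1.32 and 44.8 TPM), *Cat*, catalase (3.95 and 90.5), *Sf3b4*, a splicing factor (22.1 and 391), *Mt2*, a metallothionein (6.09 and 425), *Uqcr11*, a subunit of respiratory complex III (67.3 and 1342), *Otub1*, a deubiquitinase (23.5 and 466), and *Wdr74* (7.24 and 124). *Mt2*, *Uqcr11* and *Wdr74* were represented in both libraries by tags that start with thymine only, and *Otub1* to at least 99.9%, and these 4 were not called without such tags. *Tpi1* was not called without them either. In the wild-type AVC all tags of *Rrn3*, *Sf3b4* and *Ankrd37* start with thymine, and in the null 63.7%, 98.8% and 96.8% do. Without thymine tags the calls of these genes therefore set the remaining null tags against none. *Sf3b4* turned to a log2 ratio of -1.84 when only the last site of each transcript was counted. In the chambers *Mt2* was listed at 4410 TPM in atria and 886 in ventricles.

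The first base after the NlaIII site divided the tag types of the 2 libraries. Among tag types listed in both, 4921 that start with thymine had a median log2 ratio of 0.91, and those that start with adenine (4107), cytosine (3337) and guanine (4803) had medians of -0.61, -0.37 and -0.61. Tags that start with thymine made up 15.4% of gene-matched tags in the wild-type AVC and 34.6% in the null. Erythroid genes set aside, the shares were 15.3% in the wild-type AVC, 16.3% in the OFT, 19.6% in atria, 21.2% in ventricles and 33.8% in the null, so that the null stood apart from all 4 wild-type libraries. The same was seen within genes. In 1630 of 2042 genes with tags of both kinds the tags with thymine had the larger ratio, by a median of 1.32 on the log2 scale (quartiles 0.22 and 2.43). Whether the strain, the genotype or the making of the library goes with this cannot be told apart.

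**Figure D4:**
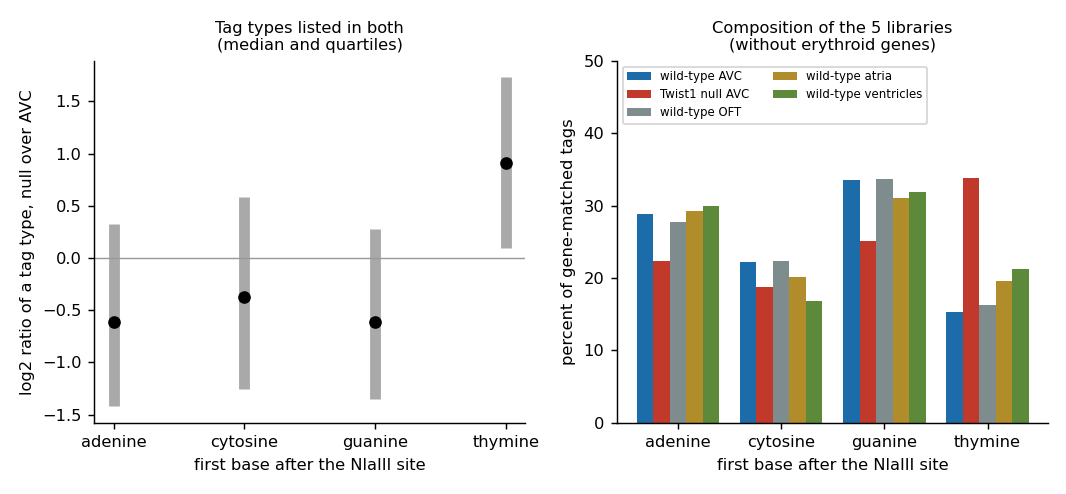
Left, median log2 ratio (null over wild-type AVC, points) and quartiles (bars) of tag types listed in both libraries by the first base after the NlaIII site. Right, percent of gene-matched tags with each first base in the 5 libraries, erythroid genes set aside, where thymine reaches 33.8% in the null against 15.3% to 21.2% in the wild-type libraries.

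Tags of 1 gene often disagreed. Of 4093 genes with at least 2 tag types of 50 or more tags, listed in both libraries, 38% had all tags on the side of the gene's own ratio, and the SD between the log2 ratios of the tags of a gene had a median of 1.14 (quartiles 0.63 and 1.75). Among 573 of these genes that were called, the share was 65.8%, with 62.4% of 298 lower and 69.5% of 275 higher genes. Without tags that start with thymine, 2714 genes had at least 2 such tag types. In 44.0% of them all remaining tags lay on 1 side of 0, whatever the side of the gene's own ratio. This measure is looser than that of the 38%, and the genes differ, so the 2 shares are not to be compared. The median SD in these genes was 1.03, so that a wide spread remained. The tags of a gene come from the same 2 libraries and are not replicates. The site also mattered, as 9121 tag types at the last site of their transcript had a median log2 ratio of -0.35 and 1999 at the second site 0.36.

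**Figure D5:**
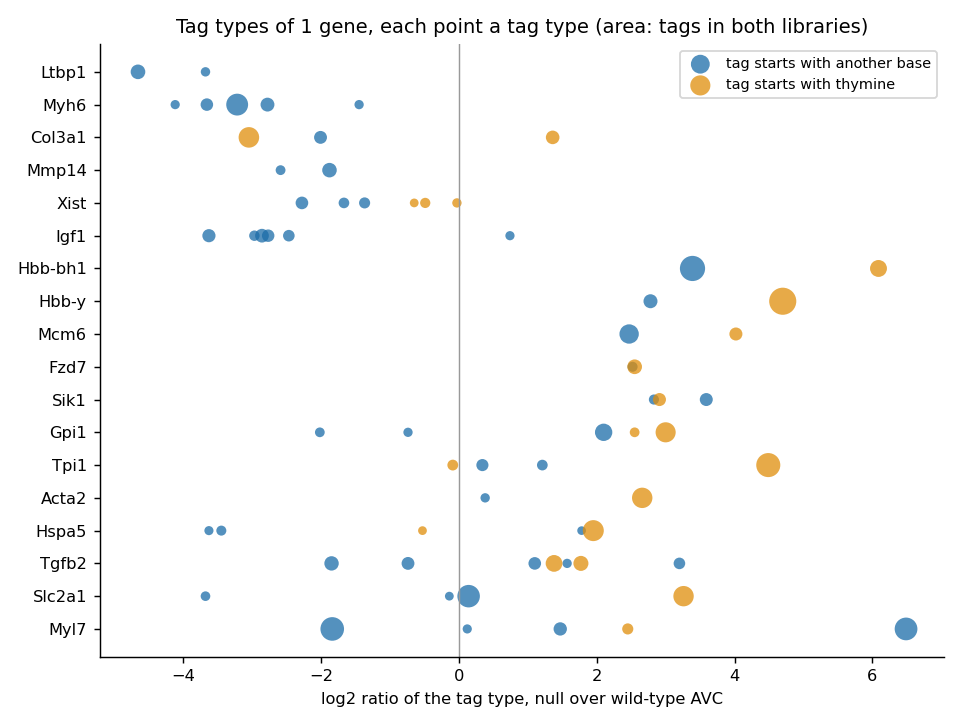
Log2 ratio (null over wild-type AVC) of each tag type with at least 50 tags for 18 genes, with point area growing with the number of tags and colour giving whether the tag starts with thymine. All tags of *Ltbp1*, *Myh6* and *Mcm6* lie on 1 side of 0, whereas those of *Hspa5*, *Tgfb2* and *Myl7* lie on both.

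In some genes a different tag led in each library. Of 915 genes at 100 TPM or more in both, 95 (10.4%) had another leading tag in the null than in the wild-type AVC. The atrial myosin light chain gene *Myl7* is 1 example, and its tags are set beside those of *Gng5*, a G protein subunit gene, and *Crip2*, a LIM protein gene, because the sum per gene hides the exchange.
*Myl7*, leading in the wild type: CATGgacctggccggcaacat
*Myl7*, leading in the null: CATGacccaggcagacaagtt
*Gng5*, leading in the wild type: CATGgatttctgtctcacaag
*Gng5*, leading in the null: CATGaaccagtgaatattcaa
*Crip2*, leading in the wild type: CATGgctatggagacttttgc
*Crip2*, leading in the null: CATGgttcatggctatggaga
In *Myl7* both tags lie in coding sequence, 404 bases apart. The tag of the last site stood at 4303 TPM in the wild type and 1203 in the null, the next one at 24 and 2161 TPM, and the gene as a whole was listed at 4341 and 3405 TPM and was not called. In *Gng5* the last site (chr3:146505473-146505493) had 424 and 33.7 TPM and the second 7.24 and 267, with 434 and 365 for the gene. In *Crip2* the sites are 7 bases apart in the 3′ UTR, and the tag of the last one had 201 and 81.1 TPM against 2.30 and 371 for the other. In all 3 genes the wild-type OFT, atria and ventricles shared the leading tag of the wild-type AVC. None of these 6 tags starts with thymine.

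The strains can differ in sequence, so tags 1 base apart were looked for. Of 100 reference tags at 10 TPM or more in the wild-type AVC and under a twentieth of that in the null, 3 had a partner 1 base away that no wild-type library listed, that matched no reference transcript and that reached in the null at least 25% of the level of the reference tag in the wild-type AVC. In the opposite direction 1 of 322 tags had such a partner. The 3 pairs are printed with the differing base in capitals, and positions are counted from the first base after the site.
*Mrps23*, reference: catgggcAcacagctcatagg
*Mrps23*, null (A4T): catgggcTcacagctcatagg
*Ryk*, reference: catggctctgctcacAtttgg
*Ryk*, null (A12G): catggctctgctcacGtttgg
*Rtn4rl1*, reference: catgtttataaactatacGgg
*Rtn4rl1*, null (G15A): catgtttataaactatacAgg
All lie in 3′ UTRs, at chr11:88211294-88211314, chr9:102907577-102907597 and chr11:75266874-75266894, on the plus strand. The reference tag of *Mrps23*, a mitochondrial ribosomal protein gene, had 38.5 TPM in the wild-type AVC and 1.23 in the null, where its partner had 28.7. With the partner counted the gene stood at 76.0 and 70.1 TPM, a ratio of 1.08 (0.967 to 1.21). *Rtn4rl1*, a Nogo receptor family gene, had 17.0 and 7.17 TPM without the partner and 17.0 and 19.8 with it. For *Ryk*, with the partner counted, the interval of the 3.56-fold difference was 3.08 to 4.12. The genomes of the embryos were not read, and a sequence difference was not tested in any other way.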

How the data were processed

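Tag-seq libraries of the AVC, OFT, atria, ventricles and *Twist1* null AVC were used, 1 per group, with groups from the sample labels. The deposited values are raw counts of reads per 17-base tag. The authors filtered reads by Chastity, cut each to its first 21 bases (4 for the site) and kept tag types seen more than 5 times. Their removal of mismatch tags and mapping to genes are not in these files. Pooling, MmeI tagging and PCR precede the counts, and no molecular identifiers were used.

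Tags were matched in sense to 315529 virtual tags of 33363 GENCODE M21 transcripts (GRCm38) linked to RefSeq, in pandas 2.3.3, numpy 2.4.6 and scipy 1.17.1 under Python 3.11.15, with plots in matplotlib 3.10.9. Tags of 1 gene, 70.7% of all tags in the wild-type AVC and 73.8% in the null, were summed per gene. Library totals were 6075421 (AVC), 12977237 (null), 5267618 (OFT), 4666514 (atria) and 4223810 (ventricles) tags. Whether a tag is unique in the genome was not checked.

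The 2 AVC libraries were compared with edgeR 4.0.16 in R 4.3.3 (exactTest, two-sided), with the dispersion fixed at 0.12 as in the study and library sizes set to the totals. Genes at unadjusted p under 0.05 are called. Intervals are Clopper-Pearson intervals, or conditional binomial ones for ratios. Where a library lists no tag of a gene, each missing tag type was set to 5 tags and the ratio is a bound. The script was tested on simulated data.

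Named genes are *Twist1*, the 10 of smallest p in each direction that hold with TMM and with tags of both libraries and are not named in the study's text or main tables, up to 4 called members a direction and the most abundant uncalled member of each gene list, and genes of tag pairs. Other list members were named after their values were seen, to complete a group. One member of the TGF-beta list and another of the neural crest list are not reported here, and the counts and plots leave them out. The members and lists were chosen with earlier results of these data known. Alternatives are scaling (TMM, DESeq2 1.42.0 size factors), dispersion, adjustment, filters, thinning (seed 20261127), last site, fill, mismatch tags, GC offset and transcripts. The first-base offset, both settings that join a tag filter with TMM, and cell-type sums without thymine tags were added after seeing the data.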

Additional observations from a re-analysis of the deposited data

Results flagged for a closer look

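Tags that match transcripts in the antisense direction alone were used in no comparison. They made up 9.20% of the tags of the *Twist1* null AVC, above the wild-type AVC (6.11%), OFT (6.74%), atria (3.09%) and ventricles (3.67%). The null listed 18299 such tag types and the wild-type AVC 11595. The null library is the deepest, and what goes with the larger share was not tested.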

How the results depend on the processing

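No paired analysis was possible because each group is 1 library and the groups share no replicate numbers that pair them, and no library could be left out for the same reason. The DESeq2 test was not run without replicates, and its size factors alone were used. The dispersion moved the counts most. With 0.05, 3007 genes were lower and 2443 higher (202 and 123 list members), with 0.4 the counts were 307 and 506 (26 and 20 members), and with 0 they were 5433 and 4275 (351 and 221 members). After Benjamini-Hochberg adjustment 511 and 656 genes remained under 0.05 (54 and 36 members), against 118 lower and 78 higher list members without it. Higher genes numbered 935 with at least 50 tags per gene, 753 with tag types listed in both libraries, 764 with 5 tags for a missing type and 986 without thymine tags, and 915 genes were lower with tags of both and TMM. With at least 100 tags a tag type 40.5% of all and 72.8% of called genes agreed over their tags. Without thymine tags the ratios of marker sums were 0.892 for cardiomyocytes, 0.641 for chamber and 0.530 for canal myocardium, 0.738 for endothelium, 0.231 for cushion mesenchyme, 0.618 for epicardium, 6.43 for erythroid, 0.542 for foregut mesoderm, 0.340 for sex-linked genes and, reversed, 0.740 for smooth muscle. Foregut mesoderm reversed to 1.8 with tag types listed in both. Log2 ratios of named genes that changed sign were, at the last site alone, -1.84 (*Sf3b4*), 6.04 (*Cacna1g*), -6.25 (*Acta2*), -0.18 (*Cdk1*), 5.75 (*Ier5*), 5.58 (*Idi1*) and 5.58 (*Fdft1*). With 5 tags for a missing type they were -0.17 (*Ppbp*) and -0.09 (*Aldh1a3*). Without thymine tags they were -0.47 (*Acvr2a*), -0.77 (*Cdk1*), -2.21 (*Hspa5*) and -3.66 (*Chd4*), and with TMM as well -0.18 (*Cdk1*), -1.62 (*Hspa5*) and -3.07 (*Chd4*). The other alternatives turned no named gene. Beyond the construction of each setting the cause was not tested. Genes near 0.988 TPM in the wild type or 0.462 TPM in the null are at the limit of depth.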

Other observations

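Several groups of genes not yet described held calls in both directions, as did all genes together (12.7% lower and 11.9% higher). Of 19 immediate-early genes 4 were lower and 4 higher in the null. *Klf4* (32.1 TPM in the wild-type AVC and 4.55 in the null) and *Atf3* (30.5 and 4.85), both transcription factor genes that answer quickly to stress, were lower in all 4 other settings, and *Sik1*, encoding a salt-inducible kinase, was higher (6.58 and 61.6) with all 3 of its tags of at least 50 tags in agreement. *Egr1* (51.5 and 29.4) was not called. Among 31 p53 targets and apoptosis genes 4 were lower and 4 higher, shares near those of all genes. The lower ones included *Daxx* (63.0 and 9.79) and *Casp8*, the initiator caspase of death receptors (38 and 8.09), and the higher ones *Casp9*, the caspase of the mitochondrial path (2.47 and 19.8), and the p53 targets *Trp53inp1* (8.39 and 37.6) and *Bbc3* (13.7 and 44.6). Of the guidance genes *Efnb1*, encoding ephrin B1 (74.1 and 15.9), and *Plxnb2* (63.7 and 13.9) were lower, while *Plxnb1*, its relative among semaphorin receptors, was higher (14.3 and 47.2). *Fth1*, the heavy chain of the iron store ferritin, was higher (166 and 679), and the light chain gene *Ftl1* was not called (899 and 428).

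The imprinted noncoding RNA *H19* had 5213 TPM in the wild-type AVC and 3346 in the null, and *Igf2*, which lies next to it, had 1207 and 3033, and neither was called. Of 26 imprinted genes 4 were lower and 2 higher, again near the shares of all genes. *Tet1*, which oxidises methylcytosine, was higher (4.28 and 30.2). The sex-linked sum was 222 and 93.9 TPM. *Xist*, made from the inactive X chromosome, was lower (93.3 and 29.3, 6 of 6 tags) in 2 of the 4 other settings, and the Y-linked gene *Ddx3y* had 70.8 and 26.9 and was not called. Both genes were listed in both pools.

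A tag of adenines alone took 0.734% of the tags in the wild-type AVC and 0.0173% in the null, and between 0.132% and 1.75% in the other libraries. Tags without any match that a single library listed made up 2.46% of the tags of the wild-type AVC and 2.60% of those of the null.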
